A study of Mus musculus with 24 samples.

Results

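The response to tamoxifen was measured in the gastrocnemius of mice that carry an inducible, muscle-specific Cre recombinase, and the effect common to females and males was estimated in 1 model. All libraries of transgene carriers were taken by genotype label, 12 of the 24 in the series, in 4 groups of 3: females given vehicle, females given tamoxifen, males given vehicle and males given tamoxifen. They carry HSA-MCM together with Numb(f/f)/NumbL(f/f), so floxed alleles of Numb and Numbl are present in vehicle and tamoxifen mice alike. HSA-MCM is MerCreMer, a Cre that enters the nucleus once tamoxifen binds it, driven by the promoter of human skeletal actin, a gene of muscle fibres and not of the other cells in the tissue. The 12 remaining libraries are Numb(f/f)/NumbL(f/f) mice without the transgene, called flox mice here (the males among them carry WT in their titles), of both sexes and given vehicle or tamoxifen. They show the drug without the recombinase and are tested only in the last comparison. Female and male transgene libraries were counted into separate tables, so sex and table cannot be told apart. Transgene and flox females are also in separate tables, while males of both genotypes share a table. Age, tamoxifen dose and the time from dosing to collection were not stated in the labels.

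Numb and its relative Numbl are adaptor proteins that link membrane cargo to the endocytic machinery. They are best known for restraining Notch signalling when they are passed unequally to daughter cells, and in muscle they act both in satellite cells, the stem cells of the tissue, and in mature fibres. Tamoxifen is itself a ligand of oestrogen receptors and is taken up by cells with or without Cre. Vehicle and tamoxifen carriers therefore differ in the drug as well as in the induced recombinase.

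The labels were checked before the comparison. Esr1, which encodes the oestrogen receptor that lent MerCreMer its ligand-binding domain, lay at 392 to 2031 CPM (counts per 1000000, TMM-scaled over the 12 transgene libraries) in the carriers and at 22.9 to 42.5 CPM (scaled over 24 libraries) in flox mice, so its counts follow the genotype labels. For 3 male transgene libraries, numbered 1039, 1063 and 1080, the title names a vehicle control while the treatment field names tamoxifen. They were read as vehicle by their titles. Skeletal muscle fibre markers summed to 137400 to 226100 CPM in every transgene library, with none of the 10 markers at 0. Totals were 31219445 to 39142101 counts in females and 25118053 to 28080536 in males, and 6.28% to 7.83% of female and 7.31% to 11.4% of male counts were mitochondrial. Genes annotated as rRNA took 0.000256% to 0.00177% of counts in female and 0.196% to 0.290% in male transgene libraries. The source of that difference between the tables was not tested. The labels give each library its own number but do not say that each is a separate animal, so p-values speak of the spread between libraries, which may be technical.

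The targeted genes did not pass the test. Numb (chromosome 12, 83794034 to 83921934, minus strand, GRCm38) was at 23.0, 23.2 and 20.5 CPM in the female vehicle libraries and at 18.7, 19.1 and 18.6 CPM after tamoxifen. In males it was at 18.3, 20.7 and 19.3 CPM after vehicle and at 19.9, 20.8 and 17.9 CPM after tamoxifen. The groups separated in females and overlapped in males, and the common log2 change was -0.12 ± 0.07 (SE; adjusted p = 0.502 by edgeR's quasi-likelihood test). Numbl (chromosome 7, 27258433 to 27282144, plus strand) had 2.64 to 3.76 CPM after vehicle and 3.76 to 5.13 CPM after tamoxifen in females, and 2.84 to 3.24 against 3.24 to 4.75 CPM in males, a common log2 change of 0.39 ± 0.13 (adjusted p = 0.198). In flox mice, which carry no Cre, the log2 change of Numb was -0.28 in females and -0.22 in males. That of Numbl was 0.41 and 0.52. The transgene and flox effects did not differ past the threshold for Numb (adjusted p = 0.78) or Numbl (adjusted p = 0.973, both by edgeR's quasi-likelihood test). Counts are per whole gene and do not separate the floxed part from the rest of the transcript. Both genes also share exon positions with other annotated genes. These levels therefore do not check whether recombination took place.

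Tamoxifen carriers of both sexes shared a small set of changed genes, with the adhesion gene Flrt1 far ahead of all others on the rising side and the secreted Dkk3 and Ostn leading the falls. Of 15677 genes tested, 200 passed an adjusted p of 0.05, which is 1.28% of them. The 107 that were higher after tamoxifen made up 0.683% and the 93 that were lower 0.593%. A change of at least 2-fold was seen in 60 of the 200, 38 higher and 22 lower, and 76 changed less than 1.5-fold. The median log2 change over all tested genes was 0.01. Of the 200, 195 had the same sign in both tables, which held for 55.0% of all tested genes, and 186 were protein coding. In 160 of the 200 the tamoxifen and vehicle libraries did not overlap in either table, which was so for 460 genes or 2.93% of all tested. The common test itself favours genes that move alike in both tables. The shares with the same sign or without overlap are therefore no separate evidence that the sexes agree. Exon positions are shared with another annotated gene in 74 of the 200, and counts of those genes are uncertain because the strand setting of the counting is not given.

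The count of called genes rested on the libraries included. It was 100, 81 and 106 without female vehicle library 902, 920 or 922, 121, 87 and 101 without female tamoxifen library 871, 919 or 921, and 106 and 127 without male vehicle library 1039 or 1080. Without the other 4 libraries it was 139 to 176. With the female table alone, which leaves out the 3 males whose labels disagree, 187 genes passed and 78 of them are among the 200. With the male table alone 27 passed, of which 16 are among the 200.

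**Figure D1:**
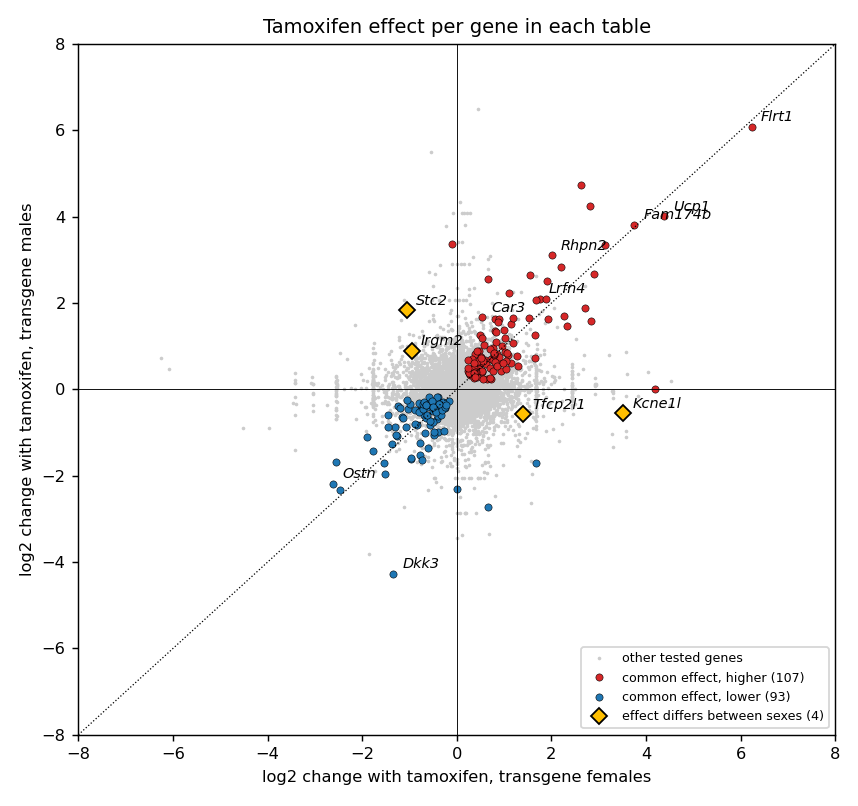
Each point is 1 of the 15677 tested genes, with its log2 change (tamoxifen against vehicle) in transgene females on the x axis and in transgene males on the y axis. Red and blue points are the 107 genes that rose and the 93 that fell in the common test, diamonds are the 4 genes whose effect differed between the sexes, and the dotted line marks equal change; Flrt1 stands alone at the upper right, at 6.23 in females and 6.09 in males.

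The largest rise was that of Flrt1 (chromosome 19, 7092001 to 7105729, minus strand), which encodes a leucine-rich repeat transmembrane protein that takes part in cell adhesion and fibroblast growth factor signalling. Flrt1 was at 1.18, 2.03 and 2.76 CPM in female vehicle libraries and at 107, 183 and 161 CPM after tamoxifen. In males it was at 3.31, 3.68 and 3.85 CPM after vehicle and at 169, 291 and 275 CPM after tamoxifen. Every tamoxifen library stood far above every vehicle library of either sex, including the 3 males with disagreeing labels. Group means were 1.99 ± 0.790 and 150.3 ± 39.0 CPM in females and 3.61 ± 0.275 and 245 ± 66.1 CPM in males (SD, n = 3 each), a common log2 change of 6.16 ± 0.23 (SE; adjusted p = 1.56e-07).

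Lrfn4, which encodes a synaptic adhesion molecule of the same leucine-rich repeat class, had 2.36, 1.76 and 3.06 CPM in vehicle females and 7.72, 7.19 and 9.27 CPM in tamoxifen females. Males had 2.31, 1.93 and 1.97 CPM after vehicle and 8.18, 6.48 and 12 CPM after tamoxifen. The groups did not overlap in either sex, and the common log2 change was 1.92 ± 0.17 (adjusted p = 0.000183). Such a separation was required of each of the 12 largest rises and 12 largest falls, so it is no added evidence for any of them. Lrtm2, another leucine-rich repeat membrane protein, rose by 2.06 ± 0.42 (adjusted p = 0.0371) from 0.105 to 0.319 CPM to 0.494 to 2.26 CPM in females, and from 0.711 to 1.46 CPM to 2.32 to 5.27 CPM in males. The Lrtm2 call was lost without any 1 of 7 of the 12 libraries, with a log2 change of 1.78 to 2.28 over all 12 omissions and an adjusted p of at most 0.0885.

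Syt12, Muc4, Stum, Tmem266 and Chrna9 were also among the 12 largest rises. Syt12, a synaptotagmin of vesicle membranes, rose by 2.18 ± 0.23, from 1.5 to 2.17 CPM to 5.49 to 7.98 CPM in females and from 0.948 to 1.0 CPM to 2.94 to 7.78 CPM in males. Muc4, a membrane-bound mucin, rose by 2.02 ± 0.27, Stum, named after a mechanosensory gene of flies, by 1.93 ± 0.31, and Tmem266, a voltage-sensor protein of neurons, by 1.85 ± 0.26. These genes were at most at 2.45 CPM in any transgene vehicle library. Chrna9, an acetylcholine receptor subunit known from the hair cells of the ear, rose by 2.31 ± 0.45 (adjusted p = 0.0283), with raw counts of 61, 24 and 16 in vehicle females against 202, 215 and 106 after tamoxifen. In males it had raw counts of 1, 1 and 2 after vehicle and 5, 5 and 20 after tamoxifen. The male part of that rise therefore rests on few reads, and the call was lost without any 1 of 7 libraries (adjusted p at most 0.0854).

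Rhpn2 had 6.47, 6.10 and 4.89 CPM in vehicle females and 19.4, 23.5 and 27.5 CPM after tamoxifen. In males it had 2.21, 3.06 and 2.43 CPM after vehicle and 17.6, 19.5 and 29.5 CPM after tamoxifen. No library of one treatment reached the range of the other, and the common log2 change was 2.52 ± 0.23 (adjusted p = 0.000515). Fam174b had the next largest rise after Flrt1 among the genes with a mean of at least 1 CPM, by 3.78 ± 0.42 (adjusted p = 0.00279), from 1.14 to 3.57 CPM to 14.2 to 35.2 CPM in females and from 0.543 to 0.925 CPM to 4.06 to 15.2 CPM in males. Cyp4f39, a cytochrome P450 of the fatty acid hydroxylating family, rose by 2.31 ± 0.43 (adjusted p = 0.028), a call lost without any 1 of 5 libraries (at most 0.0765), and the coiled-coil gene Ccdc125 rose by 1.77 ± 0.24. Fam174b, Rhpn2, Syt12 and Muc4 share exon positions with other annotated genes, Rhpn2 with Faap24 and Muc4 with Muc20. Flrt1, Lrfn4, Rhpn2, Fam174b, Syt12, Muc4, Stum, Tmem266 and Ccdc125 held their call without any 1 library.

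Promoter sequences from RefSeq, on build GRCm38.p6, are shown for 3 rising genes and 1 falling gene whose calls held without any 1 library, from 250 bases before to 50 bases after the annotated start, 5′ to 3′ along the gene. Of the 12 largest rises 9 have an entry, and of the 12 largest falls 7, and Flrt1 is among those without. The entries counted for Chrna9 and Fgd3 lie 32203 and 11103 bases from the start of the gene in the gene annotation. Capitals mark matches to any of 5 motifs searched on both strands: the oestrogen response element GGTCANNNTGACC, the single-site form AGGTCA, the xenobiotic response core GCGTG, the E-box CACGTG and the cyclic AMP response element TGACGTCA. The single-site form can lie inside the full element, and the core can overlap an E-box.
Lrfn4 (chr19:4615618-4615917, minus strand): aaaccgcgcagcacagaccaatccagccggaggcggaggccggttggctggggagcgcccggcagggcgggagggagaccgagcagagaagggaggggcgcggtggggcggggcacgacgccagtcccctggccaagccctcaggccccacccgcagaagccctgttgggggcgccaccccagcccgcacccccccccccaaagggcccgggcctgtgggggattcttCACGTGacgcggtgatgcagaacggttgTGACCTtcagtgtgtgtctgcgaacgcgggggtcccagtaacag
Rhpn2 (chr7:35333987-35334286, plus strand): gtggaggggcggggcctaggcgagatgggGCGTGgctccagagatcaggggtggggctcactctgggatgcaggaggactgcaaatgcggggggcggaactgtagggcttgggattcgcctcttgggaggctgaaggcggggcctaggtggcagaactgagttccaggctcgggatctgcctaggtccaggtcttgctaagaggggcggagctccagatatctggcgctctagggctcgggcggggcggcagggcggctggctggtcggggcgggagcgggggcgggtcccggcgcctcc
Fam174b (chr7:73740057-73740356, plus strand): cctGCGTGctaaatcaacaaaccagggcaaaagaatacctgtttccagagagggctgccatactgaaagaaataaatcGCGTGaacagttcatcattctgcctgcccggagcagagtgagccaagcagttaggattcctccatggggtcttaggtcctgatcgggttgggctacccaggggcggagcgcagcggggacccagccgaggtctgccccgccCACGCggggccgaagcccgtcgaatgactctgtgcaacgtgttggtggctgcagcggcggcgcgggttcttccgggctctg
Itga4 (chr2:79255176-79255475, plus strand): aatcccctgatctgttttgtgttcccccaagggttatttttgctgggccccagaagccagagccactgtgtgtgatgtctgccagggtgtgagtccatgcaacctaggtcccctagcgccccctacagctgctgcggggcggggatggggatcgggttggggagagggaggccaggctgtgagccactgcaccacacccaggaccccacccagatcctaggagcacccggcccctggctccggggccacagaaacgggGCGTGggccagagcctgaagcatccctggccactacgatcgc

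The full oestrogen response element is in 0 of the 9 rising and 0 of the 7 falling promoters, against 0.07% of all 32851 RefSeq promoters of this length. The single-site form is in 2 of 9 rises, Lrfn4 and Ccdc125, and 1 of 7 falls, Tnfaip2, against 16.3% of all. The xenobiotic core is in 5 of 9 rises (Fam174b, Rhpn2, Cyp4f39, Lrtm2 and Stum) and 4 of 7 falls (Itga4, Amd1, Slc16a9 and Tnfaip2), against 32.4% of all. An E-box is in the Lrfn4 window, against 7.15% of all, and the cyclic AMP element in none, against 1.79%. The match in Rhpn2 starts at position -221 from the annotated start, those in Fam174b at -247, -172 and -31, and that in Itga4 at 8. A match describes the letters in the window and is not evidence of binding.

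**Figure D2:**
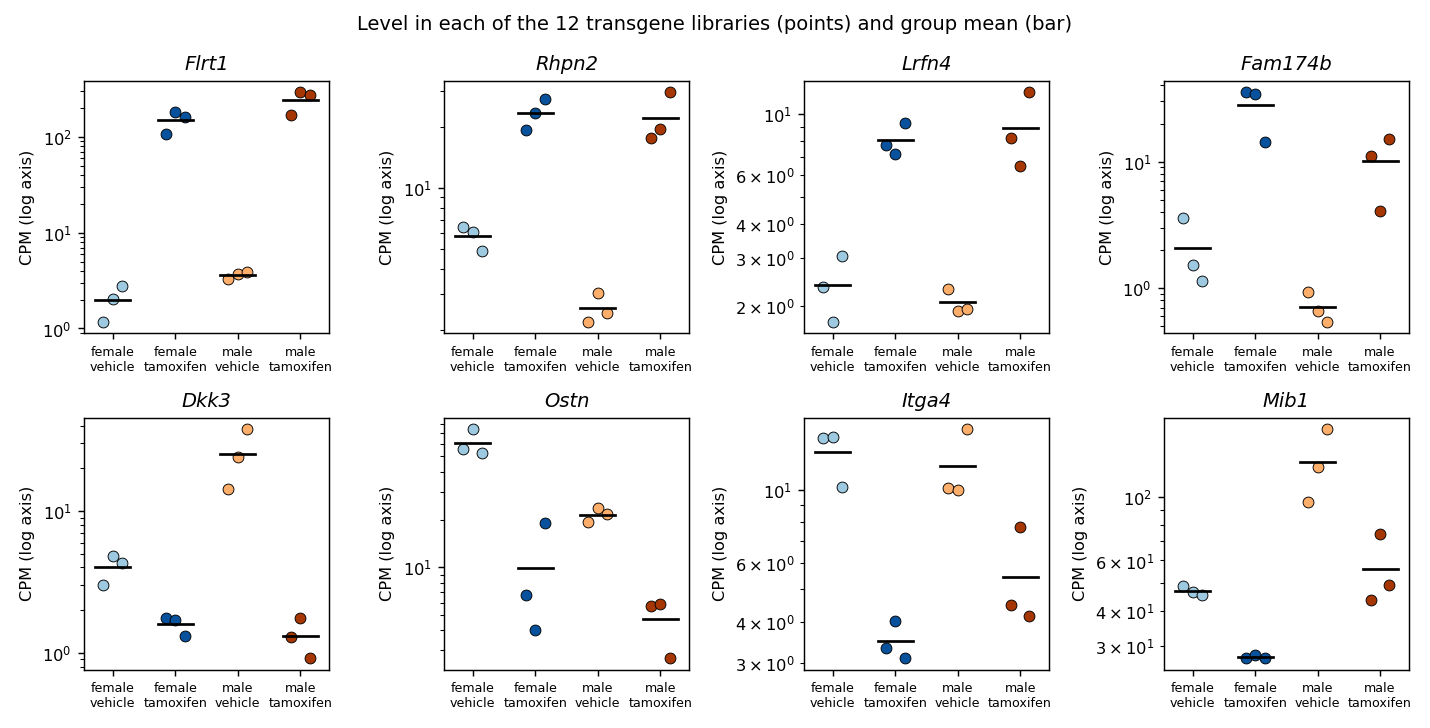
CPM on a log axis in each of the 12 transgene libraries (points) with the mean of each group of 3 (bars), for 4 genes that rose (upper row) and 4 that fell (lower row). In all 8 genes the tamoxifen and vehicle points of a sex do not overlap, which the choice of these genes required. The vehicle level of Dkk3 is higher in males (14.4 to 37.8 CPM) than in females (3.03 to 4.81 CPM).

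Secreted factors led the falls. Dkk3, a secreted relative of the Wnt inhibitors of the Dickkopf family, had 3.03, 4.81 and 4.29 CPM in vehicle females and 1.75, 1.71 and 1.32 CPM after tamoxifen. Males went from 14.4, 24.1 and 37.8 CPM to 1.29, 1.77 and 0.915 CPM. Both sexes ended at a like level after tamoxifen, from a higher level in males, with a common log2 change of -2.79 ± 0.55 (adjusted p = 0.0426). The change was -1.34 ± 0.35 in females and -4.27 ± 0.38 in males, a difference that did not pass (adjusted p = 0.109). The common Dkk3 call was lost without any 1 of 11 of the 12 libraries, where the log2 change ranged from -3.05 to -2.49 with an adjusted p of at most 0.105. Ostn, which encodes the muscle peptide musclin (osteocrin), had 55.5, 74.3 and 52.8 CPM in vehicle females and 6.71, 4.0 and 19.1 CPM after tamoxifen. In males it had 19.2, 23.7 and 21.6 CPM after vehicle and 5.68, 5.88 and 2.67 CPM after tamoxifen. The groups did not overlap in either sex, and the common log2 change was -2.41 ± 0.36 (adjusted p = 0.0139), although Ostn shares exon positions with Gm32312. Dkk3 and Ostn were the 2 of 16 tested genes of the muscle secreted factor list that passed, beside 1.28% of all tested genes, and its median log2 change was 0.02.

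Itga4, the α4 integrin subunit that binds Vcam1 and fibronectin, had 14.4, 14.4 and 10.2 CPM in vehicle females and 3.33, 4.03 and 3.10 CPM after tamoxifen. In males it had 10.1, 9.95 and 15.2 CPM after vehicle and 4.50, 7.69 and 4.16 CPM after tamoxifen. Its common log2 change was -1.51 ± 0.21 (adjusted p = 0.00389), and it shares exon positions with Cerkl. Rasd2, a small GTPase also called Rhes, fell by 1.60 ± 0.30, Rtkn2 by 1.16 ± 0.26, and Fgd3, an exchange factor of Cdc42, by 1.11 ± 0.20. The Rasd2 call was lost without any 1 of 9 libraries and the Rtkn2 call without any 1 of 10, while Fgd3 missed the threshold only without female tamoxifen library 919 (adjusted p = 0.0513). Over these omissions the log2 change stayed between -1.75 and -1.34 for Rasd2, between -1.31 and -0.97 for Rtkn2 and between -1.26 and -1.0 for Fgd3.

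Mib1 (chromosome 18, 10725548 to 10818704, plus strand) encodes the ubiquitin ligase that lets cells take up Notch ligands and so activate the receptor on their neighbours. It had 48.8, 46.5 and 45.4 CPM in vehicle females and 27.2, 27.9 and 27.3 CPM after tamoxifen. Males had 96.4, 128 and 173 CPM after vehicle and 43.7, 74.5 and 49.4 CPM after tamoxifen. The 3 tamoxifen females lay within 1 CPM of each other and all libraries of a sex separated by treatment, with a common log2 change of -1.01 ± 0.16 (adjusted p = 0.0127). Of 29 tested genes of the Notch pathway, Mib1 was the 1 that passed, beside 1.28% of all tested genes, and the list's median log2 change was 0.09. The receptor genes Notch1, Notch2, Notch3 and Notch4 were at 0.15, 0.15, 0.14 and 0.26, the ligand genes Dll1, Dll4, Jag1 and Jag2 at -0.14, -0.22, 0.09 and 0.04, and the target genes Hes1, Hey1 and Heyl at -0.34, 0.09 and 0.12, none past the threshold. Of 31 genes that encode partners of Numb and endocytic adaptors none passed, with a median of 0.00. Itsn1, an endocytic scaffold, was at -0.35 (adjusted p = 0.068), and Picalm, a clathrin assembly protein, at 0.38 (adjusted p = 0.084). None of the 11 septin genes tested passed either, with a median of 0.23.

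Amd1 encodes adenosylmethionine decarboxylase, which supplies the aminopropyl groups of spermidine and spermine. It had 24.6 to 33.5 CPM in vehicle females and 13.3 to 20 CPM after tamoxifen, and in males 1701, 1422 and 2570 CPM after vehicle against 390, 747 and 687 CPM after tamoxifen. The sexes, and with them the tables, differed in Amd1 far more than the treatments did. Its common log2 change was -1.20 ± 0.24 (adjusted p = 0.0355), which was lost without any 1 of 8 libraries (log2 change -1.31 to -1.03). Amd2, a near-identical copy between which reads cannot be told apart with certainty, was at -1.49 (adjusted p = 0.0539). Of 12 tested genes of polyamine metabolism, Amd1 alone passed, beside 1.28% of all tested genes. Odc1, the enzyme that makes putrescine, was at 0.72 (adjusted p = 0.44), Smox, which oxidises spermine, at -1.27 (adjusted p = 0.19), and the list's median was -0.10.

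Pla2g16, Tnfaip2, Slc16a9 and Tekt1 complete the 12 largest falls. Pla2g16, a phospholipase best known in fat, fell by 0.98 ± 0.17, from 172 to 194 CPM to 95.7 to 154 CPM in females and from 229 to 266 CPM to 80.2 to 125 CPM in males. Tnfaip2, a gene induced by tumour necrosis factor, fell by 0.97 ± 0.14, from 61.4 to 70.1 CPM to 25.8 to 42.0 CPM in females and from 37.9 to 60.3 CPM to 24.5 to 29.9 CPM in males. Slc16a9, a monocarboxylate transporter gene, fell by 1.02 ± 0.19, and Tekt1, a filament protein of ciliary microtubules, by 1.18 ± 0.24. Pla2g16 missed the threshold without female tamoxifen library 919 (adjusted p = 0.0507), Slc16a9 without female libraries 920 or 921 (at most 0.057), and Tekt1 without any 1 of 7 libraries (at most 0.0642). Tnfaip2, Slc16a9 and Rtkn2 share exon positions with predicted genes.

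Fat and lipid genes held both the second largest rise of all and a fall. Ucp1, the uncoupling protein of brown fat mitochondria, rose by 4.21 ± 0.53 (adjusted p = 0.00264) from very few reads, with raw counts of 0, 3 and 4 in vehicle females and 45, 94 and 26 after tamoxifen. In males the raw counts were 1, 1 and 4 after vehicle and 24, 47 and 26 after tamoxifen. All 6 tamoxifen libraries stood above all 6 vehicle libraries, at levels of 0.713 to 2.73 CPM. Plin4, which coats lipid droplets in fat and in muscle fibres, rose by 0.82 ± 0.12, from 240 to 285 CPM to 356 to 501 CPM in females and from 116 to 165 CPM to 200 to 288 CPM in males, and shares exon positions with Hdgfl2. Of 10 tested adipocyte markers, these 2 rose and none fell, beside 0.683% and 0.593% of all tested genes, and the list's median was 0.74. The other 8 did not pass, among them Adipoq at 0.79 (adjusted p = 0.35), Plin1 at 0.74 (adjusted p = 0.38), Lep at 2.59 (adjusted p = 0.092) and Fabp4 at 0.13 (adjusted p = 0.73). The adipocyte markers summed to 368 to 468 CPM in vehicle and 528 to 696 CPM in tamoxifen females, and to 232 to 325 and 376 to 448 CPM in males, with no marker at 0. Plin4 is itself a large part of these sums, and the part of fat cells in the result was not tested. Fewer cells of a type and less of an RNA per cell cannot be told apart in RNA from whole muscle. Srebf1, the transcription factor gene of lipid synthesis, fell by 0.69 ± 0.13 (adjusted p = 0.0248), the 1 call among 23 genes of cholesterol synthesis and its control (median -0.07, beside 1.28% called over all genes), and missed the threshold without female libraries 919 or 920 or male library 1039 (at most 0.0568). It shares exon positions with Rai1.

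In the antioxidant, atrophy and autophagy, unfolded protein response and steroid receptor lists 1 or 2 genes passed each, beside 1.28% of all tested genes. None passed in the stress lists of heat shock genes and p53 targets. Gpx3, a secreted glutathione peroxidase, had 314, 306 and 229 CPM in vehicle females and 347, 392 and 828 CPM after tamoxifen, and 138, 154 and 150 against 528, 369 and 472 CPM in males, a common log2 change of 1.26 ± 0.23. Car3, the carbonic anhydrase III of slow fibres and fat, rose by 1.10 ± 0.22. In females its change was 0.54 ± 0.20 and in males 1.67 ± 0.20, a difference that did not pass (adjusted p = 0.225). They were the 2 of 18 antioxidant genes that passed (median 0.04), and their calls were lost without any 1 of 8 and 7 libraries (adjusted p at most 0.0731 and 0.0885). Foxo3, a transcription factor that drives protein breakdown in wasting muscle, rose by 0.55 ± 0.10, from 38.2 to 39.6 CPM to 48.5 to 57.9 CPM in females and from 27.4 to 28.5 CPM to 37.5 to 57.1 CPM in males. Map1lc3a, of autophagosomes, rose by 0.44 ± 0.09, a call lost without any 1 of 7 libraries (adjusted p at most 0.0752). These were 2 of 21 atrophy and autophagy genes (median -0.06). Xbp1, the transcription factor of the unfolded protein response, rose by 0.60 ± 0.09, 1 of 22 in its list (median 0.06). Nrip1, a corepressor of oestrogen and other nuclear receptors also called RIP140, rose by 1.02 ± 0.18, from 21.7 to 39.2 CPM to 64.8 to 70.5 CPM in females and from 33.0 to 44.7 CPM to 51.6 to 89.3 CPM in males. It was 1 of 15 steroid receptor and coregulator genes (median -0.03), and its call was lost without any 1 of 6 libraries (adjusted p at most 0.0606).

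Scx, the transcription factor of tendon cells, rose by 0.61 ± 0.12 (adjusted p = 0.0283) and was the 1 of 9 tendon markers that passed (1.28% of all tested genes did), a call lost without any 1 of 7 libraries (adjusted p at most 0.0689). All 9 had a positive estimate, with a median of 0.76 and Col12a1 at 0.94 (adjusted p = 0.13), Tnmd at 0.98 (adjusted p = 0.45) and Mkx at 1.05 (adjusted p = 0.27). Summed tendon markers overlapped between treatments, at 94.4 to 160 against 86.5 to 202 CPM in females and 108 to 155 against 146 to 199 CPM in males, with no marker at 0. Blood markers, which are haemoglobin and other red cell genes, were positive in 6 of 6 with a median of 0.75 and none past the threshold, and summed to 120.5 to 219.8 against 169 to 486 CPM in females and 327 to 402 against 300 to 643 CPM in males. Of 4 neutrophil markers tested none passed (median 0.96), with a sum of 1.47 to 1.82 against 3.36 to 4.94 CPM in females and 2.09 to 12.7 against 3.07 to 12.5 CPM in males; Ly6g was at 0 in vehicle females. The lymphocyte markers Cd3g and Cd8a were at 0 in tamoxifen females. The part of blood left in the muscle or of tendon in the dissected piece was not tested. No marker passed in the endothelial, fibroblast, satellite cell, macrophage, lymphocyte, smooth muscle or Schwann cell lists, whose medians lay between -0.11 and 0.22.

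Lists whose estimates went apart in the tables gave no common call, beside 1.28% called over all tested genes. The 16 slow fibre genes tested had a median log2 change of 0.65 in females and -0.59 in males, and 0.11 for the common effect. Myh7, the slow myosin heavy chain, ranged from 326 to 1712 CPM in vehicle and 1090 to 2614 CPM in tamoxifen females, and from 63.8 to 924 and 10.4 to 760 CPM in males, so the libraries of 1 group differed more than the groups. The 15 fast fibre genes had a median of -0.20 in females and 0.04 in males. The 26 interferon response genes had a median of -0.66 in females and 0.17 in males, with Ifi44 at -1.31 and 0.49 and Irf7 at -0.81 and 0.64. Among the 20 clock genes, Arntl was at -1.74 in females and -0.44 in males (common adjusted p = 0.0895), Per2 at 2.02 and 0.31, and Ciart at 1.69 and -0.61, with a list median of 0.26 in females and -0.01 in males. None of these genes passed the common test or the test of the difference between the sexes.

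Of the larger metabolic and structural lists, 0 of 37 oxidative phosphorylation genes passed, and 32 had a positive estimate (median 0.09). Over all tested genes 1.28% passed and the median was 0.01, so a list of this size without a call is not set apart from other genes. The mitochondrial share of counts was 6.28% to 6.86% after vehicle and 6.54% to 7.83% after tamoxifen in females, and 7.31% to 11% and 8.60% to 11.4% in males. Likewise 0 of 33 extracellular matrix genes passed, 27 of them positive (median 0.18), with Postn at 1.06 (adjusted p = 0.13) and Col1a1 at 0.78 (adjusted p = 0.26). None passed among 32 sarcomere and costamere genes (median -0.04), 26 calcium handling genes (-0.04), 28 glycolysis and glycogen genes (-0.07), 29 fatty acid oxidation genes (0.02), 18 neuromuscular junction and denervation genes (0.06) or 16 myogenic and satellite cell genes (0.00). The same was so of the lists of p53 targets, glucocorticoid responsive genes, immediate early genes, heat shock genes, insulin and IGF signalling, MAP kinase phosphatases and amino acid transporters, with medians from -0.06 to 0.14.

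**Figure D3:**
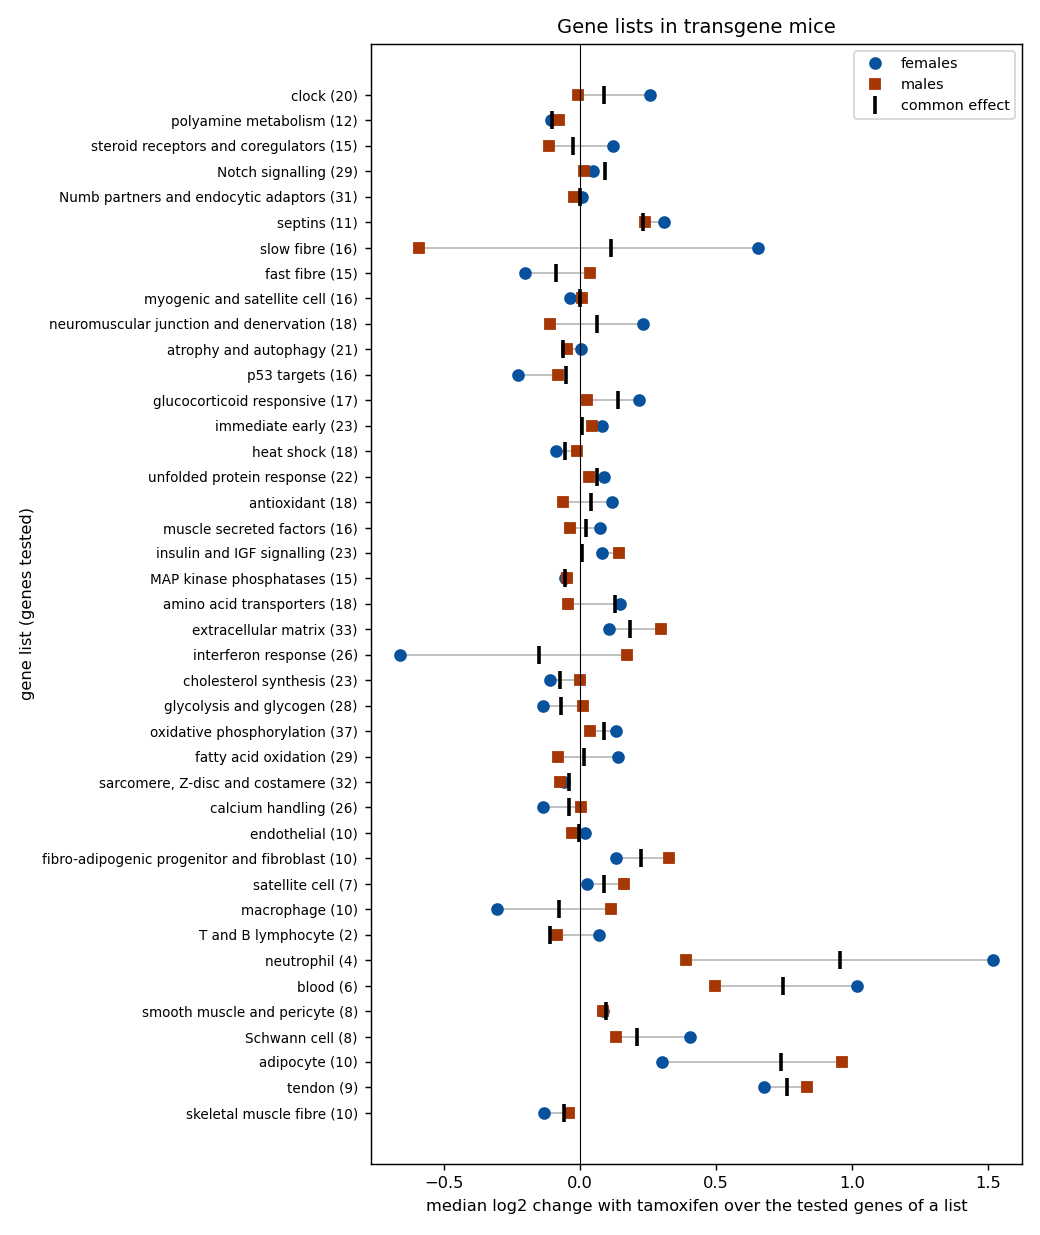
Median log2 change with tamoxifen over the tested genes of each list (number in brackets), in transgene females (circles), transgene males (squares) and for the common effect (black bars). Slow fibre and interferon genes have medians of opposite sign in the sexes (0.65 and -0.59, -0.66 and 0.17), while tendon, blood and adipocyte markers are on the positive side in both.

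The effect of tamoxifen differed between males and females in 4 of the 15677 genes, or 0.0255%, by edgeR's quasi-likelihood test of the interaction (1302 at an unadjusted p under 0.05), and none of the 4 is among the 200. Stc2, a secreted stanniocalcin, was at 8.67 to 11.8 CPM after vehicle and 4.17 to 6.36 CPM after tamoxifen in females, and at 0.961 to 2.17 and 4.20 to 6.39 CPM in males, a male minus female difference of 2.90 ± 0.39 in log2 units (adjusted p = 0.0404). Irgm2, an interferon-induced GTPase, was at 22.3 to 32.1 CPM after vehicle and 9.28 to 16.1 CPM after tamoxifen in females, and at 7.51 to 8.15 and 13.9 to 15.6 CPM in males, a difference of 1.85 ± 0.27 (adjusted p = 0.0444). It shares exon positions with Igtp, another gene of that family. In both genes the treatments separated in opposite directions in the sexes, and after tamoxifen the levels of females and males overlapped.

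The other 2 differed the opposite way. Kcne1l, a regulatory subunit of potassium channels on the X chromosome, was at 0.351 to 0.579 CPM in vehicle and 2.94 to 8.39 CPM in tamoxifen females, against 0.627 to 1.13 and 0.432 to 0.839 CPM in males, a difference of -4.08 ± 0.60 (adjusted p = 0.0444). Tfcp2l1, a transcription factor of epithelial and stem cells, was at 3.73 to 4.79 and 9.80 to 12.2 CPM in females and at 21.2 to 32.5 and 15.1 to 19.5 CPM in males, a difference of -1.98 ± 0.23 (adjusted p = 0.0143). The number of genes past this test moved between 0 and 9 when 1 library was left out. It was 0 without female library 902, 919 or 922 or male library 1085, 1 without 920, 1055 or 1063, 2 without 871, 1039 or 1062, 7 without 1080 and 9 without 921. Because sex and table cannot be told apart, these 4 differences belong to either.

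The effect of tamoxifen was then set against that in flox mice, which carry no Cre. In females genotype and table cannot be told apart, so a difference in effect between transgene and flox females belongs to either. Across all 24 libraries the mean effect in transgene mice differed from that in flox mice in 2 of 16670 genes, or 0.012% (1335 at an unadjusted p under 0.05), and none of the 200 genes of the common effect passed this test. Their log2 change had the same sign in flox mice in 194 of 200, or 97.0%, against 61.8% of all tested genes. Over the 200 the median size of the common effect was 0.69 in transgene mice. In that direction the median was 0.69 in transgene females and 0.66 in transgene males, against 0.28 in flox females and 0.60 in flox males. The genes were called on the transgene libraries, so the larger size there is a description.

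Flrt1 was at 1.01, 2.21 and 1.51 CPM in flox females after vehicle and at 43.8, 8.49 and 53.7 CPM after tamoxifen (scaled over 24 libraries). In flox males it was at 1.68, 2.32 and 1.89 CPM after vehicle and at 211, 214 and 207 CPM after tamoxifen. Tamoxifen libraries without the transgene were thus also above all vehicle libraries, with a difference between transgene and flox effects of 0.53 ± 0.52 (adjusted p = 0.863). For Rhpn2 the effect was 1.28 in flox females and 3.36 in flox males (difference 0.23 ± 0.25, adjusted p = 0.888), for Dkk3 -2.19 and -3.48, for Ostn -2.37 and -1.05 (difference -0.70 ± 0.42, adjusted p = 0.726), and for Mib1 -0.71 and -0.60 (difference -0.37 ± 0.21, adjusted p = 0.701).

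Other large changes had mean estimates nearer 0 in flox mice, without passing the test of the difference. Fam174b was at 1.39 in flox females and 1.82 in flox males (difference 2.17 ± 0.48, adjusted p = 0.275), Syt12 at 0.11 and 1.51 (1.39 ± 0.46, adjusted p = 0.493), and Lrfn4 at -0.86 and 2.01 (1.34 ± 0.53, adjusted p = 0.566). In flox males the Lrfn4 estimate was close to that in transgene males (2.10), and the flox females given vehicle ranged from 2.21 to 22.3 CPM with a median of 4.93 CPM. Itga4 was at -0.75 and 0.18 (-1.23 ± 0.29, adjusted p = 0.277), Rasd2 at -0.94 and 0.30 (-1.29 ± 0.50, adjusted p = 0.555), and Rtkn2 at 0.50 and 0.21 (-1.54 ± 0.53, adjusted p = 0.496). A p that misses the threshold does not show that the effects were alike. These genes were chosen for large changes in the transgene libraries, which favours a larger difference from flox mice. The sizes of these differences are therefore a description.

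**Figure D4:**
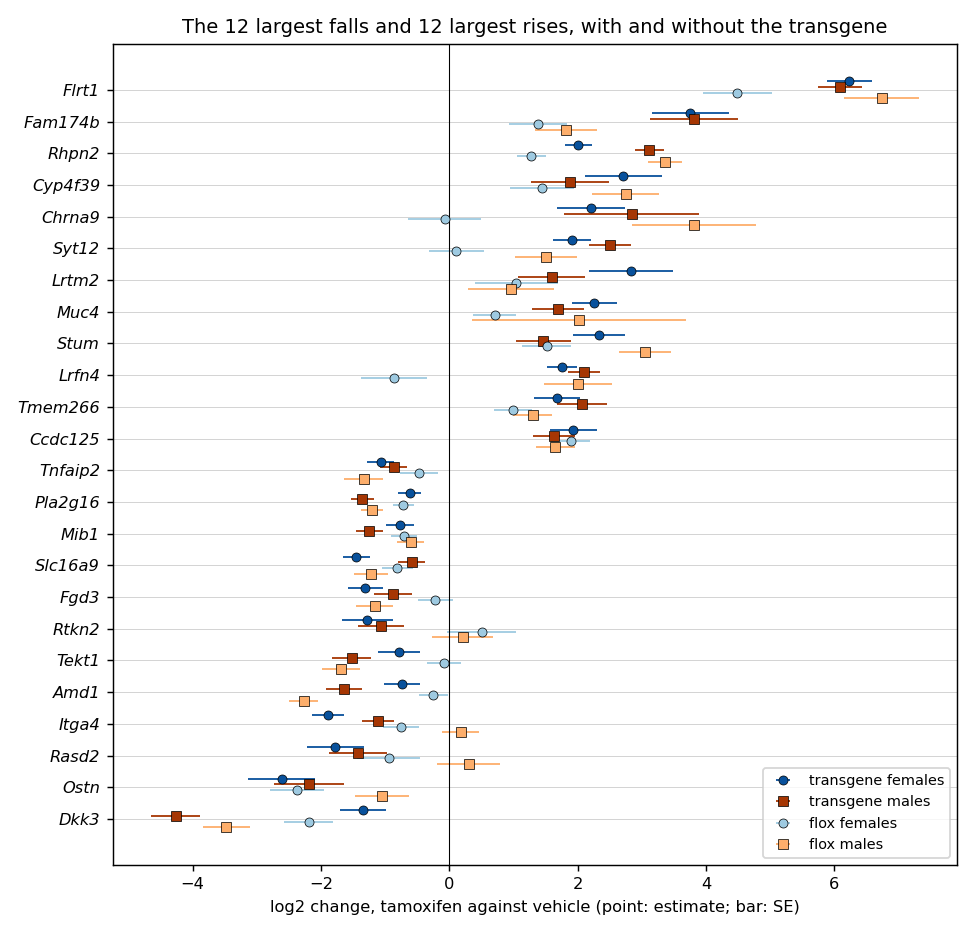
Log2 change with tamoxifen (points) and its standard error (bars) for the 12 largest rises and 12 largest falls of the common effect, in transgene females and males and in flox females and males. Flrt1 is far to the right in all 4 groups (6.23, 6.09, 4.49 and 6.74), while Itga4, Rasd2 and Rtkn2 lie near or right of 0 in flox males.

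The 2 genes past the test of transgene against flox mice were estimated lower after tamoxifen in transgene mice and higher in flox mice. Sgk1, a kinase induced by serum and glucocorticoids, was at 207 to 278 CPM after vehicle and 171 to 228 CPM after tamoxifen in transgene females, and at 238 to 291 and 195 to 236 CPM in transgene males. In flox females it was at 81.6 to 112 and 140 to 197 CPM and in flox males at 119 to 134 and 173 to 207 CPM (scaled over 24 libraries), a difference in effect of -0.92 ± 0.14 (adjusted p = 0.0144). Tspan8, a tetraspanin, was at 66.9 to 78.1 and 48.6 to 53.6 CPM in transgene females and at 54.1 to 67.6 and 44.2 to 61.5 CPM in transgene males. In flox mice it was at 67.2 to 78.1 and 69.9 to 84.0 CPM in females and at 51.3 to 53.4 and 73.5 to 91.7 CPM in males, a difference of -0.77 ± 0.11 (adjusted p = 0.0105). Their changes in transgene mice alone did not pass, at -0.27 ± 0.10 (adjusted p = 0.223) for Sgk1 and -0.35 ± 0.09 (adjusted p = 0.0911) for Tspan8. The Sgk1 call was lost without flox female vehicle library 3 or flox male tamoxifen library 2737, and Tspan8 held without any 1 library. With 1 sex at a time neither gene passed. The count was 1 without either of those 2 flox libraries, 4 without flox male vehicle library 2704 or 2751 and 6 without transgene male tamoxifen library 1062.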

How the data were processed

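Total RNA of mouse gastrocnemius, frozen and homogenised in Trizol and purified on Qiagen columns per the labels, was sequenced in 24 libraries. The authors deposited whole-number read counts per Ensembl gene, not normalized, in 3 tables; 12 transgene libraries come from 2 of them. STAR, featureCounts, limma, GRCm38 and mm10 are named, without roles, per the submitters' processing notes. The library kit, strand setting, handling of multi-mapped reads and annotation release are, like tamoxifen dosing, not given in the sources used here. Of 54752 gene IDs, 54723 matched a symbol in GENCODE annotation of GRCm38; 0 columns belonged to no listed sample. Replicate libraries differed by more than sampling noise in all 12 pairs (chi-square per degree of freedom 18.2 to 117).

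The common effect was tested with edgeR 4.0.16 in R 4.3.3 on the 12 transgene libraries, with table and treatment as terms, TMM scaling, filterByExpr (minimum count 10, minimum total 15), robust quasi-likelihood fits and Benjamini-Hochberg adjustment over all tested genes at 0.05. The male minus female difference used 4 groups, and the transgene minus flox difference used all 8 groups. Standard errors are the log2 change divided by the square root of F. Alternatives used DESeq2 1.42.0 and limma 3.58.1. The procedure was tested on simulated data.

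Genes were named by a rule: Numb, Numbl and Esr1; the 12 largest rises and 12 largest falls past the threshold a mean log2 CPM of 0 or more, a gene symbol that is not a clone or model name, and treatments not overlapping in either table; up to 3 called members of each list; and for the 2 differences up to 5 in each direction. The rule, the gene lists and the comparisons were chosen with earlier results of these data known, so no list is independent evidence.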

Additional observations from a re-analysis of the deposited data

Results flagged for a closer look

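These results were singled out because a test of the difference between groups passed, by edgeR's quasi-likelihood test with Benjamini-Hochberg adjustment. The effect of tamoxifen in transgene mice differed between males and females for Stc2 by 2.9 (male minus female, log2), Irgm2 by 1.85, Tfcp2l1 by -1.98 and Kcne1l by -4.08. All 4 lost the call in some of 16 alternatives, which are omissions of 1 library and other processing settings. Tfcp2l1 lost it in 4, Stc2 in 10, and Irgm2 and Kcne1l in 11 each, without a change of sign. The effect of tamoxifen differed between transgene and flox mice for Tspan8 by -0.767 (transgene minus flox, log2) and for Sgk1 by -0.922. Tspan8 held in 29 of 31 alternatives and Sgk1 in 27 of 31. Tspan8, Irgm2 and Tfcp2l1 share exon positions with other annotated genes.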

How the results depend on the processing

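The count of genes for the common effect, 200, became 574 with DESeq2's Wald test, 20 without the table term, 27 in the male table alone, 552 with all 24 libraries in 1 fit (42.6% of them higher, against 53.5%) and 393 with Myh7 as a covariate. Leaving out 1 library gave 81 to 176. It stayed near the main value with the RLE scaling (200, of which 197 shared), limma-voom (198), no filter on low counts (283), the female table alone (187) and, chosen after seeing the data, the mean of the female and male effects in a 4-group fit (261). Of 34 named genes called, 17 held without any 1 library; 9 held without the table term, where the spread includes the difference between tables, 15 in the female and 10 of 33 in the male table, and 34 under RLE scaling, DESeq2 and the Myh7 covariate. Numb and Numbl stayed on the same side in 22 alternatives, but in the male table alone Numb was at -0.0007, so its sign there carries no weight. Esr1, not called and between -0.13 and 0.26 without 1 library, changed sign under limma-voom (-0.011), without library 919 (-0.09), 1039 (-0.07) or 1085 (-0.13) and in the female table (-0.17).

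For the male minus female difference the count of 4 became 46 with no filter and 108 with DESeq2, and 0 to 9 without 1 library. For the transgene minus flox difference the count of 2 became 6 with no filter, 26 with DESeq2, 0 in females alone and 1 to 6 without 1 library; with a replicate block within flox females, the only groups compared that share replicate numbers, it was 2. With 3 libraries per group and many named genes at a few CPM after vehicle, the precision of single values is limited.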

Other observations

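Other genes past the threshold for the common effect were looked at after their values were seen, and their values are given as a description. Tfam, which packages mitochondrial DNA, rose by 0.53 ± 0.07 (SE; adjusted p = 0.00279, edgeR), from 45.4 to 49.6 CPM to 58.7 to 73.4 CPM in females and from 45.0 to 47.0 CPM to 60.1 to 74.8 CPM in males. Twnk, the helicase that unwinds it, rose by 0.37 ± 0.07 (adjusted p = 0.0248). Kmt5a, a histone H4 methyltransferase, rose by 1.08 ± 0.16, from 111 to 151 CPM to 178 to 299 CPM in females and from 159 to 191 CPM to 341 to 523 CPM in males. Jup, which encodes plakoglobin, rose by 0.88 ± 0.12, with 79.9 to 84.6 against 104.5 to 124 CPM in females and 66.2 to 75.4 against 159 to 182 CPM in males, and Ctnna1, the α-catenin, rose by 0.45 ± 0.08. The Jup change was 0.50 in females and 1.26 in males, and the difference did not pass (adjusted p = 0.0657). Klhl30 fell by 0.60 ± 0.07, from 123 to 126 CPM to 67.8 to 79.6 CPM in females and from 90.3 to 101 CPM to 66.9 to 74.0 CPM in males.

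Cyp1a1 and Tiparp, known targets of the aryl hydrocarbon receptor, both rose. Cyp1a1 rose by 1.10 ± 0.16 (adjusted p = 0.00389) from 0.956 to 1.23 CPM to 1.82 to 2.55 CPM in females and from 0.711 to 1.09 CPM to 1.87 to 2.32 CPM in males. Tiparp rose by 0.75 ± 0.10 (adjusted p = 0.00314) from 20.2 to 26.6 CPM to 39.4 to 54.1 CPM in females and from 23.5 to 28.5 CPM to 36.4 to 42.5 CPM in males. Other genes of that pathway did not pass, with Nqo1 at -0.23, Cyp1b1 at 0.34, Ahr at 0.17 and Arnt at -0.07. In flox mice Cyp1a1 was at 0.25 in females and 1.34 in males and Tiparp at 0.36 and 0.74.

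By chromosome, 15 of 514 tested genes on chromosome 19 were called (2.92%), 11 higher and 4 lower, beside 1.28% of all tested genes and 1.99% on chromosome 12, the next highest. They include Flrt1, Syt12, Lrfn4, Pla2g16, Tmem132a at 1.17, Wbp1l at 0.70, Otub1 at 0.55 and Macrod1 at -0.62.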
